A study of Mus musculus with 18 samples.

Results

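T cells recognise antigen through a clonotypic receptor whose alpha and beta chains bind peptide on MHC and whose signal is carried by the invariant CD3 chains. The genes of that receptor, of its co-receptors and kinases, and of the factors that hold T cell identity are described here, 35 genes in all of the 22477 listed in either of the authors' deposited tables. They were chosen by symbol, from 7 receptor chains, 3 co-receptor chains, 8 proximal signalling molecules, 5 surface glycoproteins, 4 costimulatory receptors, 6 transcription regulators and 2 cytokine or chemokine receptors. All 35 were listed for spleen and 33 for bone marrow, where Trat1 and Ctla4 have no row. No member passed the authors' test in either tissue. In spleen 31 of the 35 lay above 0 by small amounts, and in bone marrow they were spread evenly about 0.

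Messenger RNA was measured by QuantSeq, which reads 1 tag from the 3' end of each polyadenylated transcript, in C57BL/6 mice. Bone marrow cells came from Cgas-/- mice (4 libraries), which lack the DNA sensor cGAS, and from Trex1-/-;Sting1gt/gt mice, called dKO (4 libraries), which lack the exonuclease TREX1 and carry a loss-of-function allele of STING. Spleen cells came from lethally irradiated dKO hosts 12 weeks after receiving Cgas-/- marrow (5 libraries) or dKO marrow (5 libraries), so both spleen groups share the dKO host, and host T cells that outlived the irradiation are not separated from donor cells. The labels give neither the age and sex of the mice nor any pooling. Both deposited tables give the mean normalized count of a gene over all libraries of a tissue, and the log2 fold change of Cgas-/- over dKO (or of Cgas-/- marrow over dKO marrow) with its standard error. Single libraries were not analysed here. Their depths are therefore unknown, and the group means below were calculated from each gene's overall mean and fold change.

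T cells leave the bone marrow as progenitors, mature in the thymus and recirculate through spleen, where they occupy the T zone of the white pulp. Marrow holds few mature T cells, among them memory and regulatory cells that return to it. On engagement of the receptor, LCK phosphorylates the CD3 and zeta chains, ZAP-70 docks there, and LAT assembles the downstream signalling complex.

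The receptor chain genes that define T cells are themselves members, so their listing does not test the label of the set. The 7 receptor chain genes were all listed in both of the authors' deposited tables, with mean normalized counts of 19.3 (Cd247) to 136 (Trbc2) in bone marrow and of 238 (Cd3g) to 1852 (Trbc2) in spleen. Of the targeted genes, Trex1 was higher and Cgas lower with Cgas-/-, as the labels have it, in the authors' deposited tables, with Trex1 at 1.45 ± 0.178 (standard error, as throughout) in bone marrow and 2.71 ± 0.199 in spleen, and Cgas at -1.13 ± 0.155 and -0.92 ± 0.217. On GRCm38, the assembly of the submitters' build mm10, the members lie on 16 chromosomes. The 4 on chromosome 9, the CD3 genes and Thy1, start at least 64.1 Mb from Trex1 and 33.4 Mb from Cgas, so 0 of 35 lie within 10 Mb of either targeted gene. Of the 35 genes, 14 overlap another annotated gene on their own strand and 12 one on the other strand, and since no label states the counting strand, reads in such overlaps cannot be assigned.

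The sequences of the receptor genes are shown first, because they bear on how the counts can be read. The beta chain is encoded by either of a pair of constant region genes, Trbc1 (ENSMUSG00000076490.6, chr6:41538218-41539881, plus strand) and Trbc2 (ENSMUSG00000076498.2, chr6:41546730-41548352, plus strand), whose starts are 8512 bases apart. In the GENCODE M21 transcripts, exon 1 has 375 bases in each gene and differs at 1 base, and exon 3 has 107 bases and differs at 15 bases. Exon 3 is coding sequence in both and is printed with the differing bases in capitals, Trbc1 from chr6:41539229-41539335 and Trbc2 from chr6:41547772-41547878.
Trbc1: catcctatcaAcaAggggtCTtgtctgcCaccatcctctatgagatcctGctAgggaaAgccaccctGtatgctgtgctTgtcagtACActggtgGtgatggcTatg
Trbc2: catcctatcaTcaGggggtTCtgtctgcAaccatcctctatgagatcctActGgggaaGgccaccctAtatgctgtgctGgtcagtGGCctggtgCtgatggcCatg
Of the 643 stretches of 50 bases in the Trbc2 transcript, 283 also occur in Trbc1, all of them starting in exon 1. Among the 251 such stretches within the last 300 bases, where 3' tags fall, 0 occur in Trbc1. Stretches from the 3' end therefore tell the genes apart by sequence, while 75.5% of those starting in exon 1 do not. No label states how reads matching both genes were counted, so the single values of Trbc1 and Trbc2 remain uncertain.

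Cd3g, Cd3d and Cd3e lie within 40.1 kb of chromosome 9, and the starts of Cd3g and Cd3d face away from each other 1355 bases apart. Their promoters, from 250 bases before to 50 after the start in RefSeq on GRCm38.p6, are printed because these neighbours are compared below. Capitals mark matches, on either strand, to 4 short motifs of factor families known to act in T cells. The RUNX motif was searched as TGTGGT, and the ETS motif was searched as AGGAAG. The motif of the factors TCF and LEF was searched as CTTTGA, and that of the GATA factors was searched as AGATAA. No match shown overlaps another. Cd3d is read from chr9:44981536-44981835 on the plus strand, Cd3g from chr9:44980382-44980681 and Cd3e from chr9:45009562-45009861 on the minus strand.
Cd3d: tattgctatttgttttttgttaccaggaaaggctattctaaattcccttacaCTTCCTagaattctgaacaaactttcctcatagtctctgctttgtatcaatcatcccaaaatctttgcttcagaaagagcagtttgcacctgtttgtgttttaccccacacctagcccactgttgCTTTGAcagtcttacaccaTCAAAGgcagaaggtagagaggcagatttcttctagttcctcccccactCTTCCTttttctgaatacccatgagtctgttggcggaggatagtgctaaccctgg
Cd3g: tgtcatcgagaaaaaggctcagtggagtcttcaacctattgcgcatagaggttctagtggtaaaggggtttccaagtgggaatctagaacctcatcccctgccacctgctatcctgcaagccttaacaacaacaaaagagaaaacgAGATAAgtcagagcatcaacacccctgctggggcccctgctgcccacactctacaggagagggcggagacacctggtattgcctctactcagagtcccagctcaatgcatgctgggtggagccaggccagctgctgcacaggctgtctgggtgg
Cd3e: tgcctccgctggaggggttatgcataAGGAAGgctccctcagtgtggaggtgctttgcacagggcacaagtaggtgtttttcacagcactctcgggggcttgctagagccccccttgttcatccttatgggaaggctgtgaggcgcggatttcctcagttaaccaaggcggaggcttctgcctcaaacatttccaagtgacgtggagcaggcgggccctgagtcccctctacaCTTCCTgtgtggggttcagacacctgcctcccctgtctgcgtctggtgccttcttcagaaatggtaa
The Cd3d promoter held 4 matches, a pair each of ETS and TCF/LEF letters, the Cd3e promoter 2 ETS matches and the Cd3g promoter 1 GATA match. RefSeq promoters were given for 22 of the 35 members, 35 promoters in all because some genes have several starts. The ETS letters occurred in 16 of these 35 promoters (45.7%), against 35.4% of all 32851 promoters of the same length. The TCF/LEF letters occurred in 8 (22.9% against 16.003%), the RUNX letters in 4 (11.4% against 16.8%) and the GATA letters in 4 (11.4% against 11.2%). These are matches of letters only, and a promoter without one may still be bound.

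In spleens of recipients of Cgas-/- marrow the receptor chain genes had all 7 values above those of recipients of dKO marrow, by 1.05-fold to 1.29-fold. None was called by DESeq2 in the authors' deposited table, where the adjusted p of every member rounds to 1. Of all 21830 genes listed there, 0.133% had an adjusted p under 0.05 and 3.02% an unadjusted p under 0.05. Of the 35 members, 0 passed and 2 (5.71%) had an unadjusted p under 0.05, both of them higher, where 1.17% of all genes were higher at that p and 2.02% of the genes with a mean of at least 20, which include all 35 members.

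Cd3g, the gamma chain of CD3, had the largest value of the 35 in spleen. Its calculated mean normalized counts were 268 with Cgas-/- marrow and 207 with dKO marrow, a log2 fold change of 0.37 ± 0.150 in the authors' deposited table (DESeq2 unadjusted p = 0.0141, 95% interval 0.07 to 0.66). Trac, the constant region of the alpha chain, had calculated means of 922 and 756 and a log2 fold change of 0.29 ± 0.135 in the authors' deposited table (DESeq2 unadjusted p = 0.0336). These 2 are the members whose 95% intervals left out 0, and a change would have needed to reach 0.62 (Cd3g) or 0.55 (Trac) on the log2 scale to be called, taking the smallest absolute Wald score among the called genes, 4.10, as the limit.
The partners of these chains were closer to 0. In the authors' deposited table, Cd3d, the delta chain, was at 0.13 ± 0.120 and Cd3e, the epsilon chain that is in both CD3 dimers, at 0.07 ± 0.166. The zeta chain gene Cd247 was at 0.13 ± 0.140, Trbc1 at 0.22 ± 0.144 and Trbc2 at 0.13 ± 0.137 in the authors' deposited table. The difference between Cd3g and its partners was not tested, since genes measured in the same libraries are not independent. Summed over the 7 genes, calculated means were 5297 with Cgas-/- and 4693 with dKO marrow, a ratio of 1.13.

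The co-receptors define helper and cytotoxic T cells and bring LCK to the receptor. Cd4 had calculated means of 272 with Cgas-/- marrow and 262 with dKO marrow (log2 fold change 0.05 ± 0.177 in the authors' deposited table). Cd8a had 418 and 409 (0.03 ± 0.140) and Cd8b1, the beta chain of CD8, 356 and 379 (-0.09 ± 0.150, DESeq2 unadjusted p = 0.534) in the authors' deposited table. The 95% intervals held changes between 0.816-fold and 1.32-fold for Cd4 and between 0.765-fold and 1.15-fold for Cd8b1. Their summed calculated means were 1045 and 1050, a ratio of 0.995.

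Of the 8 proximal signalling genes in spleen, 7 lay above 0, with a median of 0.07. Lck, the first kinase of the pathway, had calculated means of 1126 and 1081 (0.06 ± 0.110 in the authors' deposited table), and Zap70 186 and 180 (0.04 ± 0.159). Trat1, which stabilises the receptor complex at the membrane, was the highest of them at 0.35 ± 0.193 in the authors' deposited table, with calculated means of 83.2 and 65.2 (DESeq2 unadjusted p = 0.0692). The adaptors Lat (0.08 ± 0.146) and Skap1 (0.17 ± 0.166), the thymocyte signalling gene Themis (0.05 ± 0.171) and the kinase gene Prkcq (0.19 ± 0.147) lay between these in the authors' deposited table. Ubash3a, a phosphatase family member that restrains receptor signalling, was the 1 below 0, at -0.07 ± 0.268 in the authors' deposited table.

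Transcription regulators of the T lineage lay above 0 in 6 of 6 cases in spleen, with a median of 0.19. Foxp3, the defining factor of regulatory T cells, had the top value, 0.28 ± 0.170, in the authors' deposited table, with calculated means of 87.7 with Cgas-/- marrow and 72.4 with dKO marrow (DESeq2 unadjusted p = 0.104). It was followed by Gata3 (0.24 ± 0.135, DESeq2 unadjusted p = 0.0774), which directs T helper 2 cells, and by Tcf7 (0.20 ± 0.151) and Lef1 (0.18 ± 0.146), which encode the HMG factors of naive T cells, in the authors' deposited table. Satb1 (0.07 ± 0.102) and Bcl11b (0.01 ± 0.118), which hold cells in the T lineage, were nearest to 0 in the authors' deposited table. The intervals of neighbours in this order overlap.
The 5 surface glycoproteins, Cd2, Cd5, Cd6, Thy1 and Ms4a4b, ranged from 0.04 (Cd6) to 0.12 (Cd5) in the authors' deposited table. The smallest of their p-values there was that of Cd2, an adhesion receptor (0.11 ± 0.0857, DESeq2 unadjusted p = 0.207). The costimulatory receptors Cd28 (0.14 ± 0.157, DESeq2 unadjusted p = 0.364), Icos (0.05 ± 0.150), Ctla4 (0.02 ± 0.228) and Cd27 (-0.05 ± 0.150) had a median of 0.03 in the authors' deposited table. Ccr7, the receptor that guides naive T cells into the T zone, was at 0.06 ± 0.0987 (DESeq2 unadjusted p = 0.514), and Il2rb, an interleukin receptor chain that NK cells also express, at -0.03 ± 0.0897, in the authors' deposited table.

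**Figure D1:**
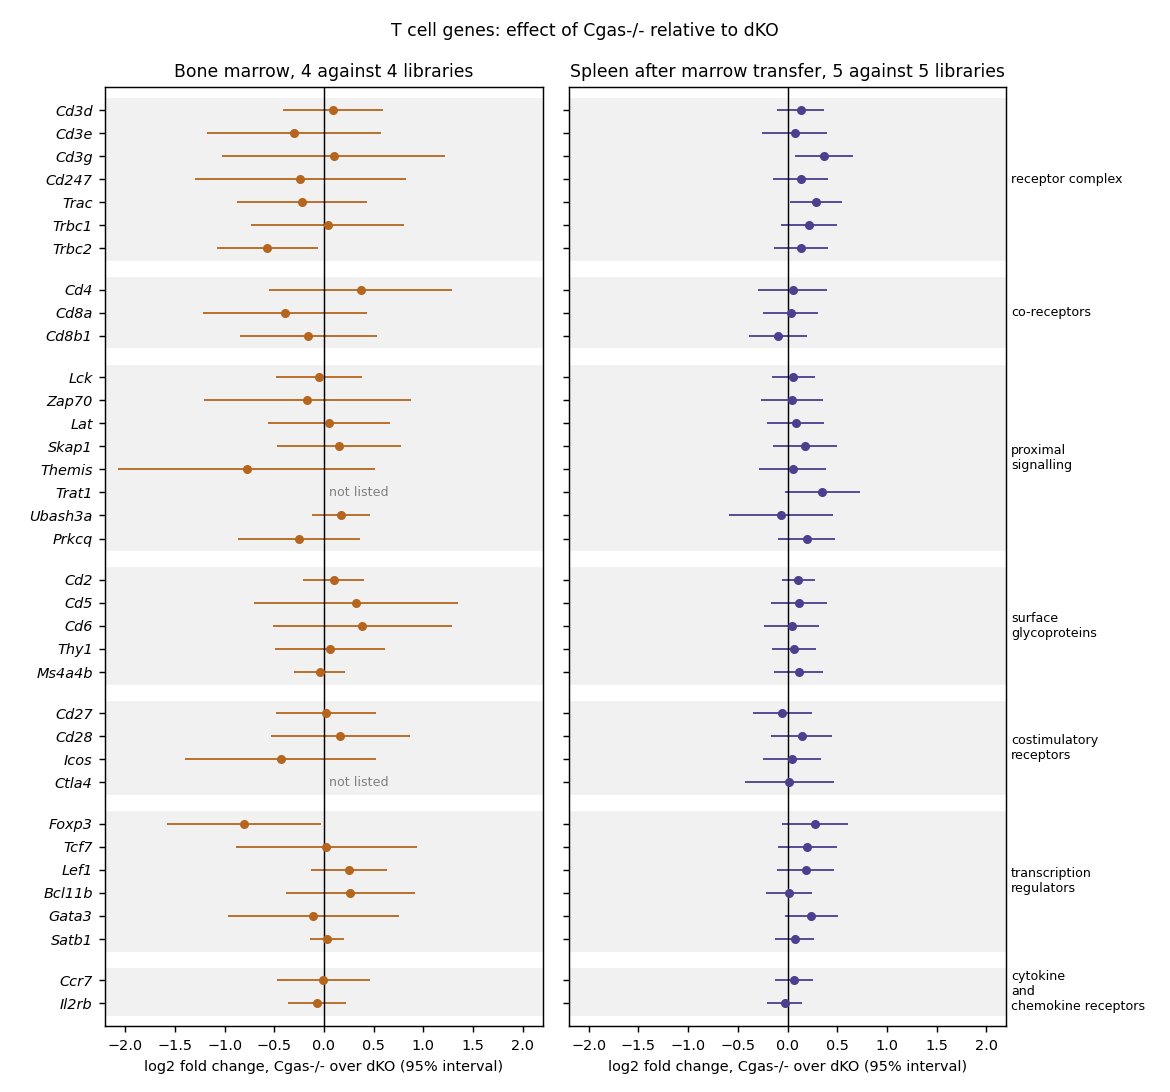
Log2 fold change of each T cell gene (Cgas-/- over dKO in bone marrow, left; Cgas-/- marrow over dKO marrow in spleen, right), with 95% intervals as lines, grouped by role on grey bands. In spleen 31 of 35 points lie to the right of 0 and 33 of 35 intervals hold 0, and in bone marrow 17 of 33 lie to the right and 31 of 33 intervals hold 0.

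Over the 35 genes the median log2 fold change in spleen was 0.08, against -0.027 over all genes of the table and 0.0057 over those with a mean of at least 20. The share above 0 was 88.6% (31 of 35), against 45.0% and 52.0%. These are descriptions without a test, because the members were chosen with results of these data known and because genes measured in the same libraries are not independent. The values were small beside their errors, with a median standard error of 0.146. All 35 intervals lay within a log2 change of 1 either way and 28 within 0.5. In bulk tissue, fewer T cells and less of an RNA per T cell cannot be told apart.

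Some marker lists of other cell types also lay to one side of 0 in spleen. Erythroid markers lay below 0 in 13 of 13 cases, with a median of -0.69, and their summed calculated means were 17715 with Cgas-/- marrow against 26079 with dKO marrow. Neutrophil markers were below 0 in 12 of 13 cases (median -0.47, sums 26048 and 31234), red pulp macrophage markers in 9 of 10 (median -0.18) and NK cell markers in 11 of 12 (median -0.20). In these 4 lists DESeq2 called 0 markers in the authors' deposited table, where 3 had an unadjusted p under 0.05, each of them lower. They were 1 each of the erythroid (7.69% of those listed), neutrophil (7.69%) and NK cell markers (8.33%), against 3.02% of all genes. Mature B cell and haematopoietic progenitor markers also had 1 each at that p, also lower. Mature B cell markers were centred on 0 (6 of 12 above, median 0.0021, sums 65042 and 66258). Monocyte markers were above 0 in 7 of 12 cases (median 0.03) and B cell progenitor markers in 7 of 9 (median 0.13). Plasmacytoid dendritic cell markers were above 0 in 4 of 10 (median -0.11) and dendritic cell markers in 3 of 9 (median -0.11). Haematopoietic progenitor markers were above 0 in 3 of 12 (median -0.19), and those of group 2 innate lymphoid and mast cells in 1 of 7 (median -0.15). Immediate early genes lay above 0 in 18 of 18 cases (median 0.35), and their 1 call in the authors' deposited table was Fos, a subunit of AP-1 (1.09 ± 0.158, DESeq2 adjusted p = 8.30e-09). The part of these shifts in the T cell values was not tested. The most abundant NK markers, Gzma (-0.16 ± 0.237) and Klrd1 (-0.05 ± 0.121), and the most abundant erythroid markers, the beta globins Hbb-bs (-0.45 ± 0.328) and Hbb-bt (-0.57 ± 0.300), had intervals that held 0 in the authors' deposited table. All 12 markers of NK cells and all 12 of mature B cells were listed in both deposited tables.

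**Figure D2:**
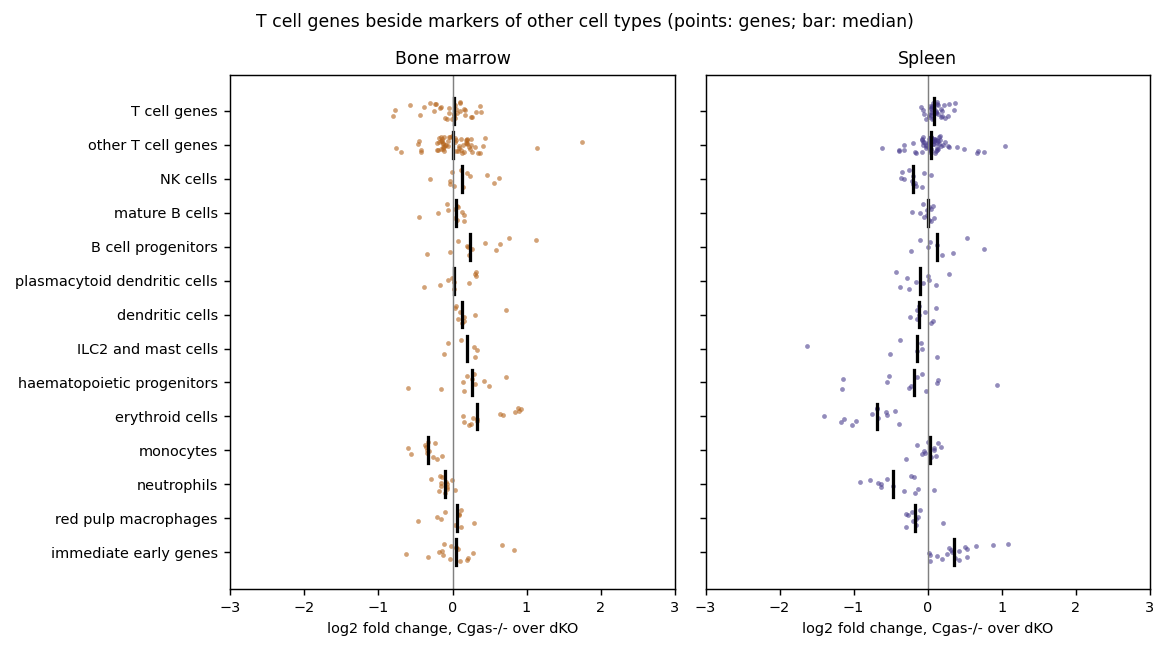
Log2 fold changes of single genes (points) and the median of each list (black bar) for the T cell genes, other T cell genes and markers of other cell types, in bone marrow (left) and spleen (right). In spleen the T cell median of 0.08 sits above the medians of erythroid (-0.69), neutrophil (-0.47) and NK cell markers (-0.20). It sits below those of B cell progenitor markers (0.13) and immediate early genes (0.35).

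In bone marrow, T cell genes were spread to either side of 0. Of the 33 listed members 17 were above and 16 below, with a median of 0.02, against -0.0023 over all 14423 genes, of which 49.5% were above 0. The authors' deposited table has 0 of these 33 called by DESeq2 (adjusted p under 0.05), where 0.534% of all genes were. An unadjusted p under 0.05 was listed for 2 members (6.06%), both lower, where 8.85% of all genes had one and 4.65% were lower at that p (5.13% of those with a mean of at least 20). The members' share lies near that of the table as a whole.

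The pair with nominal differences in marrow were Trbc2 and Foxp3. For Trbc2, whose exon 3 is printed above, the calculated means were 110 in Cgas-/- and 163 in dKO marrow, a log2 fold change of -0.57 ± 0.261 in the authors' deposited table (DESeq2 unadjusted p = 0.029, adjusted p = 0.476). Its paralog Trbc1 had 35.9 and 35.0, at 0.04 ± 0.394 in the authors' deposited table. Foxp3 (ENSMUSG00000039521.13, chrX:7573644-7595245, plus strand) had calculated means of 17.9 and 31.2 and a log2 fold change of -0.80 ± 0.397 in the authors' deposited table (DESeq2 unadjusted p = 0.0428, adjusted p = 0.532). Its interval runs from 0.334-fold to 0.982-fold. Foxp3 overlaps the noncoding gene Flicr on its own strand and Ppp1r3f, Gm36995 and Ccdc22 on the other, so its count may hold reads of these genes.

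Of the other receptor chains in marrow, Trac (-0.22 ± 0.333), Cd247 (-0.24 ± 0.540) and Cd3e (-0.30 ± 0.446) were below 0 and Cd3d (0.09 ± 0.256) and Cd3g (0.10 ± 0.572) above it in the authors' deposited table. Their spread is small beside these errors. Summed over the 7 chains, calculated means were 345 in Cgas-/- and 410 in dKO marrow, a ratio of 0.841, to which Trbc2 gave most of the difference. Cd4 was at 0.37 ± 0.469, Cd8a at -0.39 ± 0.422 (DESeq2 unadjusted p = 0.356) and Cd8b1 at -0.16 ± 0.351 in the authors' deposited table. Lck, the best counted of the kinases here, had calculated means of 94.2 and 97.6 (-0.05 ± 0.219 in the authors' deposited table), and Zap70, with a mean of 21.2, was at -0.17 ± 0.530. Themis, the least abundant member with a mean of 10.5, had the most negative value after Foxp3, -0.78 ± 0.658 (DESeq2 unadjusted p = 0.236), and an interval from 0.238-fold to 1.42-fold in the authors' deposited table.

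Apart from Trbc2, the members best counted in marrow had intervals that held 0. Satb1, which haematopoietic and B cell progenitors also express, had calculated means of 989 and 968 (0.03 ± 0.0889 in the authors' deposited table), so changes beyond 0.905-fold and 1.15-fold lie outside its 95% interval. Ms4a4b, a membrane protein of T and NK cells, had 359 and 371 (-0.04 ± 0.133), Il2rb 218 and 229 (-0.07 ± 0.150, DESeq2 unadjusted p = 0.647) and Cd2 172 and 161 (0.10 ± 0.156) in the authors' deposited table. Ubash3a had 254 and 225 (0.17 ± 0.147) and Lef1 154 and 130 (0.25 ± 0.195) in the authors' deposited table. The remaining members in marrow ranged from -0.44 (Icos, DESeq2 unadjusted p = 0.374) to 0.39 (Cd6, p = 0.403) in the authors' deposited table, each with an interval that held 0.

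Most of these genes were measured less precisely in marrow than in spleen. The reverse held for Satb1 (standard error 0.0889 in marrow, 0.102 in spleen) and Ubash3a (0.147 and 0.268). The mean normalized counts of the members had a median of 42.0 in marrow and 396 in spleen, and the median standard error was 0.333 against 0.146 (the tables were normalized separately). To be called, the median member would have needed a log2 change of 1.21 in marrow and 0.60 in spleen. A change of under 1 would have sufficed for 11 of 33 members in marrow and for 34 of 35 in spleen. An estimated 2-fold difference in marrow would thus have been called for Cd3d (0.93 needed) but not for Cd3e (1.63) or Cd3g (2.09). These limits hold for the estimate, and a true change of that size may or may not reach them.

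**Figure D3:**
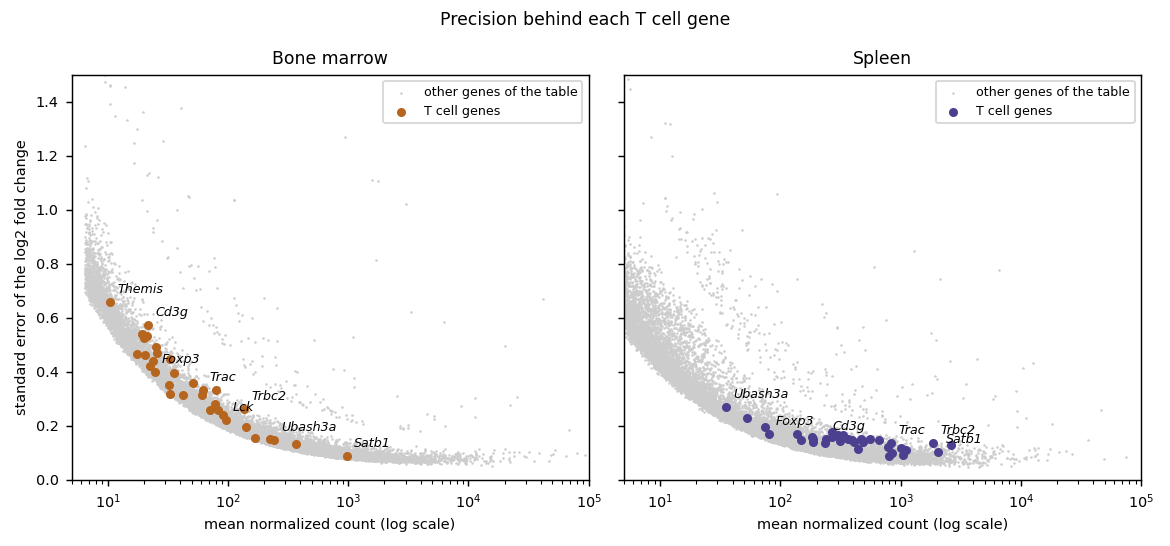
Standard error of the log2 fold change against the mean normalized count (log axis) for the T cell genes (coloured) and the other genes of each deposited table (grey), with genes outside the axes left out. Most T cell genes in bone marrow (left) lie on the steep part of the curve, with standard errors of 0.0889 (Satb1) to 0.658 (Themis), and those in spleen (right) on its flat part, between 0.0857 (Cd2) and 0.268 (Ubash3a).

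Some marker lists of other cell types lay to one side of 0 in marrow too. Erythroid markers were above 0 in 13 of 13 cases (median 0.33, sums of calculated means 66449 in Cgas-/- and 36824 in dKO) and monocyte markers below 0 in 12 of 12 (median -0.33, sums 91968 and 124993). DESeq2 called 1 of these erythroid markers and 4 of these monocyte markers in the authors' deposited table, where 0.534% of all genes were called. An unadjusted p under 0.05 was listed there for 9 of the 13 erythroid and 7 of the 12 monocyte markers, against 8.85% of all genes. Neutrophil markers were below 0 in 12 of 13 cases (median -0.10, 0 called). B cell progenitor markers lay above 0 in 10 of 12 cases (median 0.24) and dendritic cell markers in 9 of 9 (median 0.13), and DESeq2 called 1 of each in the authors' deposited table, Dntt (0.64 ± 0.166, adjusted p = 0.0311) and Flt3 (0.72 ± 0.153, adjusted p = 0.00177), which progenitors also express. NK cell markers lay above 0 in 8 of 12 (median 0.13). Mature B cell markers did so in 8 of 12 (median 0.05) and plasmacytoid dendritic cell markers in 6 of 10 (median 0.02). Red pulp macrophage markers lay above 0 in 6 of 10 (median 0.06) and immediate early genes in 9 of 17 (median 0.04). Haematopoietic progenitor markers, Flt3 among them, lay above 0 in 9 of 11 (median 0.27, 1 called). Markers of group 2 innate lymphoid and mast cells lay above 0 in 4 of 6 (median 0.20). Summed calculated means of the T cell genes were 3346 in Cgas-/- and 3353 in dKO marrow, a ratio of 0.998. That sum is weighted to abundant members such as Satb1 and Ms4a4b, and the ratio was 0.957 over the members not assigned to other blood cells and 0.841 over the receptor chains. The most abundant of the members not so assigned was Ubash3a (254 in Cgas-/- and 225 in dKO), whose level relative to CD3 differs between the tissues, as given below. The relation of the T cell genes to the shifts of other cells was not tested.

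The levels of the members relative to CD3 were compared between the tissues, with both genotypes together and as a description. The mean of each member was divided by the summed means of Cd3d, Cd3e and Cd3g in the same table, since a 3' tag count does not scale with transcript length and the tables were normalized separately. Of the 33 members listed in both, 23 had relative levels within 2-fold of each other in the 2 tissues, among them Trac (0.490 in marrow, 0.631 in spleen), Lck (0.765 and 0.830), Lat (0.487 and 0.502) and Cd4 (0.204 and 0.201). The 23 include Cd3d, Cd3e and Cd3g, which form the divisor, so their closeness is in part built in. Ubash3a stood apart, at 1.91 times the summed CD3 genes in marrow and 0.0265 times in spleen, a ratio of 72.1. It was better counted in marrow (mean normalized count 240) than any CD3 gene, and in spleen (35.3) it was the least abundant of the 35. No annotated gene overlaps Ubash3a (chr17:31207873-31246892) on either strand.
Satb1 (7.81 and 1.55), Lef1 (1.13 and 0.298), Foxp3 (0.196 and 0.0602), Prkcq (0.335 and 0.112), Il2rb (1.78 and 0.785), Cd2 (1.33 and 0.598) and Cd28 (0.407 and 0.203) were the others at least 2-fold higher in marrow relative to CD3. Tcf7 (0.141 and 0.421) and Cd247 (0.154 and 0.366) were at least 2-fold higher in spleen. Several of these genes are known outside T cells, Satb1 and Lef1 in progenitors and early B cells and Il2rb and Cd2 in NK cells. These ratios have no error, because values of single libraries were not analysed here.

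**Figure D4:**
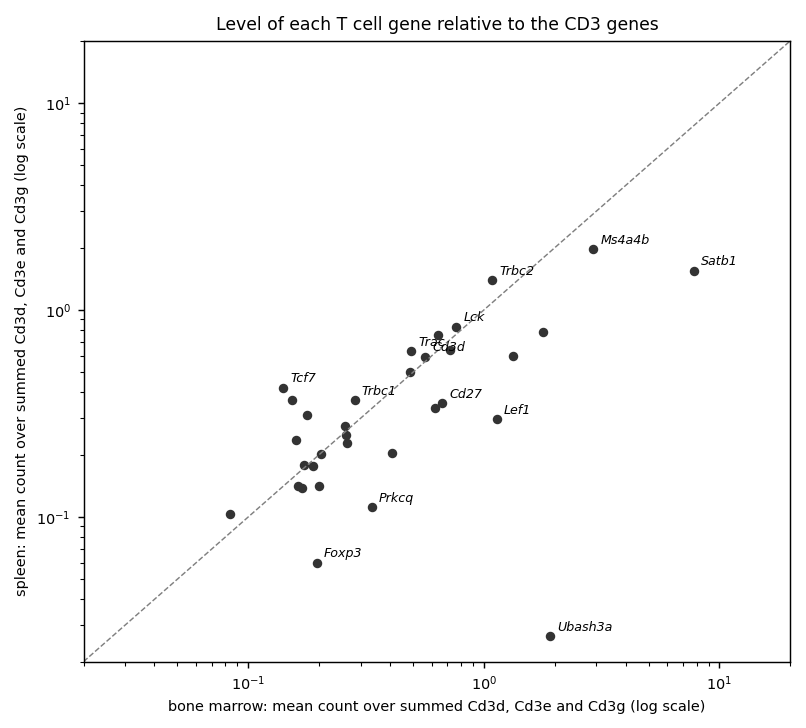
Mean normalized count of each of 33 T cell genes divided by the summed counts of Cd3d, Cd3e and Cd3g in bone marrow (x axis) and spleen (y axis), both on log scales, with the line of equality dashed. Ubash3a lies far below the line (1.91 in marrow, 0.0265 in spleen), and Trac and Lck lie near it. Cd3d, Cd3e and Cd3g are part of their own divisor.

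The log2 fold changes of the 2 comparisons were set against each other for each gene, as spleen minus bone marrow, over 13776 genes listed in both. Marrow came from untransplanted mice of each genotype and spleen from irradiated dKO hosts that differ in donor marrow, so tissue, transplantation and host cannot be told apart in this difference. The comparisons share no library. No member passed an adjusted p of 0.05, where 0.0581% of all genes did, and 2 of 33 (6.06%) had an unadjusted p under 0.05 by this normal test, against 4.8% of all genes. Foxp3 had the largest difference, 1.08 ± 0.432 on the log2 scale (adjusted p = 0.896, 95% interval 0.23 to 1.93), from values of -0.80 (marrow) and 0.28 (spleen) listed by the authors' deposited tables. Trbc2 was the other with an unadjusted p under 0.05, at 0.70 ± 0.294 (adjusted p = 0.923). The intervals of the other 31 held 0 and some were wide, such as those of Cd3e (-0.56 to 1.31) and Themis (-0.50 to 2.16). Signs were shared by 17 of 33 members (51.5%), 15 higher and 2 lower in both tissues, against 51.5% of all 13776 genes.

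A further 75 genes of T cell signalling and differentiation, written from general knowledge, were examined beside the members, 28 of them in signalling downstream of the receptor. Of the 75 genes, 60 were listed for marrow and 68 for spleen. DESeq2 called 0 genes of this list in the authors' deposited tables, and 9 in marrow (5 higher, 4 lower) and 3 in spleen (2 higher, 1 lower) had an unadjusted p under 0.05. These are 15.0% of those listed in marrow and 4.41% in spleen, against 8.85% and 3.02% of all genes. The median was 0.01 in marrow (30 of 60 above 0) and 0.05 in spleen (50 of 68 above 0). The downstream signalling genes had 22 of 28 above 0 in spleen (median 0.05) and 12 of 28 in marrow (median -0.04).
In marrow the smallest p-values belonged to Ptprc, the CD45 phosphatase gene of all leukocytes (-0.18 ± 0.0698), Klf2, a factor of quiescent lymphocytes (0.26 ± 0.0995), and Bcl10, an adaptor of NF-kB activation (0.25 ± 0.103), with DESeq2 adjusted p from 0.309 to 0.369 in the authors' deposited table. In spleen they included those of Dgkz, a diacylglycerol kinase that damps receptor signals (0.17 ± 0.0778), and Il2ra, the alpha chain of the interleukin-2 receptor (0.49 ± 0.245), in the authors' deposited table. The activation marker Cd69 had values of -0.11 ± 0.222 (marrow) and 0.18 ± 0.147 (spleen) in the authors' deposited tables. Trdc, the constant region of the delta chain of gamma-delta T cells, was at -0.43 ± 0.419 and -0.08 ± 0.197 in the authors' deposited tables.

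Members were also divided, from general knowledge, into those not assigned to other blood cells and those assigned to them as well. The assignment was not checked here, and genes of the first class may also be expressed in other blood cells. The first class includes Ubash3a, whose level relative to CD3 in marrow was far above that in spleen, so the division may not hold for every gene in these tissues. The 21 genes not assigned to other blood cells had 19 above 0 in spleen (median 0.12), and the 14 assigned to them as well 12 (median 0.08). In marrow the first class had 9 of 19 above 0 (median -0.05) and the other class 8 of 14 (median 0.02).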

How the data were processed

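The 18 libraries were QuantSeq forward (3' tag) libraries of bone marrow and spleen cells, grouped by their titles. The labels call them separate samples without naming mice, so p-values measure the spread between these samples, and that spread may be technical. Reads were processed with bcl2fastq 1.8.4, STAR 2.6.1, Partek and DESeq2 on mm10, per the submitters' processing notes. The annotation, counting tool, strand and gene filter were not given in the sources used here. Each tissue has 1 deposited table. The mean normalized count, a signal over all libraries of a tissue, is the authors' column named baseMean. Each log2 fold change with its standard error, the Wald score and ranking score, and the p-value with its Benjamini-Hochberg adjustment, are DESeq2 output of the authors, per the file headers. These values were taken unchanged, and genes with an adjusted p under 0.05 count as called. Recomputing the Wald scores and adjusted p-values gave the deposited ones.

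Calculated here were 95% intervals (1.96 standard errors), group means (from the overall mean and fold change, for equal groups, taking the fold change as unshrunk, since values up to 10.2 on the log2 scale are listed), medians over gene lists, and the spleen minus bone marrow difference over the root of the summed squared standard errors, with a two-sided normal p adjusted over 13776 genes matched by symbol. Simulated data for that difference (13776 genes) recovered 17.2% of changes of 0.5, 73.4% of changes of 1 and 98.0% of changes of 2 on the log2 scale. False calls were 5.64%, 5.87% and 4.97% of those made. The share of false calls in the deposited tables themselves was not tested. The recovered shares are over the 200 genes changed in each run, not over all 13776. They do not hold for members with large errors of the difference, such as Cd3g (0.592) and Cd3e (0.476). Recovery over the members alone was not tested. No set test was run. The members and all lists were chosen with earlier results of these data known. Any member may be named, with fuller statistics for the receptor and co-receptor genes, for those with an unadjusted p under 0.05 and for the smallest p of each role; of the other T cell genes, those with the 3 smallest p-values per table were named, except 1 that is not reported here, with Cd69 and Trdc added after their values were seen. Of each marker list the counts on a side of 0 and the median were given, and for NK and erythroid cells in spleen the most abundant 2 markers. Fos, Dntt and Flt3 were named after their values were seen. Members were matched to GENCODE M21 (35 of 35) and RefSeq promoters (22 of 35). Python 3.11.15, pandas 2.3.3, numpy 2.4.6, scipy 1.17.1 and matplotlib 3.10.9 were used.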

Additional observations from a re-analysis of the deposited data

How the results depend on the processing

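With adjustment over genes with a mean of at least 20, with an adjusted p of 0.10 or with recentring on each table's median, 0 T cell genes passed in bone marrow, in spleen or for the difference between tissues, and 0 of the other T cell genes passed in either tissue. An unadjusted p of 0.05 gave 2 T cell genes in bone marrow, 2 in spleen and 2 for the difference, and 9 and 3 of the other T cell genes in bone marrow and spleen. The median of the T cell genes ranged from -0.05, without members assigned to other blood cells, to 0.02 in bone marrow, so its sign there is not settled, and from 0.07 to 0.12 in spleen. No single member changed sign or call under the filter (64 values) or recentring (68 values). The filter leaves every log2 fold change as it is, and recentring took off only -0.0029 in bone marrow and 0.0057 in spleen. Neither setting is therefore a strong test of single members. Leaving out a library was not run, because values per library were not used. No paired analysis was possible because the tables hold comparisons, not values per library. In bone marrow low counts limit precision: 4 of 33 listed members had a mean under 20.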
